A study of Mus musculus with 10 samples.

Results

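The ubiquitin-proteasome system was examined as a set of 119 mouse genes among 19235 protein-coding genes, by the presence of a ChIP-seq peak of the histone-binding protein SET at their gene ends. The 119 genes were those with a symbol starting with Psma, Psmb, Psmc, Psmd, Psme, Psmg, Ube2 or, followed by a digit, Usp. Of 143 genes with such a symbol in assembly GRCm38, 24 lie on chromosomes 8 and 11, which were not analysed here. The set held 8 Psma, 8 Psmb, 5 Psmc, 10 Psmd, 2 Psme, 4 Psmg, 33 Ube2 and 49 Usp genes. The symbol rule also takes in Usp6nl, which is named for its similarity to a deubiquitinase and is a GTPase-activating protein.

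The experiment used KH2 embryonic stem cells of the mouse, a line built to take up a single transgene under doxycycline control. The transgene was HA-tagged SETα or SETβ from the vector pBS31. SETα and SETβ are isoforms of one gene. In the addback groups the endogenous gene was knocked out (SET KO), and in the overexpression groups it was wild type. All 4 groups received 1 µg/ml doxycycline for 24 h, were freed of feeder fibroblasts, and were crosslinked with DSG, which links proteins to each other, and then formaldehyde. Each group was 1 cell line, so line and group cannot be told apart. The libraries were precipitated with an antibody to HA and there were 2 per group, 8 with a peak list. Nothing in the labels says that the 2 libraries of a group came from separate cultures, so their spread may be technical. Samples of the knockout that received no doxycycline were not analysed here, and the peak counts therefore have no background from cells lacking the tagged protein beside them. Peak lists hold no expression, so the identity of the cells could not be checked against stem cell markers.

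Proteins are marked for destruction by a chain of enzymes: an E1 activates ubiquitin, an E2 of the Ube2 family carries it, and an E3 ligase transfers it to the target. The marked protein is degraded by the 26S proteasome, whose barrel-shaped 20S core is built from Psma and Psmb subunits and is capped by the 19S particle of Psmc ATPases and Psmd subunits. Psmg proteins are chaperones of core assembly, Psme proteins are alternative caps, and Usp enzymes remove ubiquitin again. Stem cells depend on this system for protein turnover, and most of its genes are expressed in nearly all cell types.

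The promoters of 9 genes of the set were overlapped by a peak in all 4 addback libraries and held the sequence CCGGAAG, the core recognised by transcription factors of the ETS family. These stretches are shown because the core was in 9 of the 10 promoters of the set with a peak in all 4 addback libraries. Sequences are from RefSeq promoters of assembly GRCm38.p6, 120 bases each, written 5′ to 3′ on the gene's strand. Capitals mark the ETS core or its reverse complement CTTCCGG. Psmc2 has a pair of annotated start sites with the core and is shown with both. Counts of promoters take 1 start a gene, the one nearest to the end of the gene model. Over all annotated starts, 12 start sites of these 10 genes were overlapped in all 4 libraries and 10 of the 12 held the core. The second start of Ube2j2, reached by the same peak as the first, held none and is not shown.
Ube2j2 (chr4:155943723-155943842, plus strand): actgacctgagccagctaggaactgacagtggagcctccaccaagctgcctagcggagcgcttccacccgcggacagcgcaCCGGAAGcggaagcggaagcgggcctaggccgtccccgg
Psmg1 (chr16:95990966-95991085, minus strand): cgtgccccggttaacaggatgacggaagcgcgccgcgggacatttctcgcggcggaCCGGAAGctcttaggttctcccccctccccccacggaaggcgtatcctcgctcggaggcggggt
Usp30 (chr5:114100211-114100330, plus strand): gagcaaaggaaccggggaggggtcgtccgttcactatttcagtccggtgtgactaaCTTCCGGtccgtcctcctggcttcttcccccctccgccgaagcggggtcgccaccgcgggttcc
Psmg3 (chr5:139826865-139826984, minus strand): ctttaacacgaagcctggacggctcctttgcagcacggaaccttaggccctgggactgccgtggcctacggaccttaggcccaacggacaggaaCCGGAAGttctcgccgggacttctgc
Psmc1 (chr12:100110112-100110231, plus strand): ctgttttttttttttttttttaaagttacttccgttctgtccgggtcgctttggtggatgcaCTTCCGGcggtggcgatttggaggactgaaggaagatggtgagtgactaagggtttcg
Psmc2, first start (chr5:21785135-21785254, plus strand): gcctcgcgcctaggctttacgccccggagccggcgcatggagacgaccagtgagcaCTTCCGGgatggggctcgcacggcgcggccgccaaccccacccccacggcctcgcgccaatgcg
Psmc2, second start (chr5:21786657-21786776, plus strand): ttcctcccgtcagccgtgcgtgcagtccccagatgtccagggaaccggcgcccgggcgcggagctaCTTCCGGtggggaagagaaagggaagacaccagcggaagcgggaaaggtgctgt
Usp8 (chr2:126707104-126707223, plus strand): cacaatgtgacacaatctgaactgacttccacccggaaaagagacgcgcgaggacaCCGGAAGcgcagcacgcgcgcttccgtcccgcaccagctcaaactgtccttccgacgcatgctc
Psmd2 (chr16:20651562-20651681, plus strand): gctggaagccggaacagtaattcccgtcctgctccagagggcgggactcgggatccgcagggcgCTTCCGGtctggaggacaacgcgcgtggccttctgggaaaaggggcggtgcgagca
Ube2n (chr10:95515065-95515184, plus strand): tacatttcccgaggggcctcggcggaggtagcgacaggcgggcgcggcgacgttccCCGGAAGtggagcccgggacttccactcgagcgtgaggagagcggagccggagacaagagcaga

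Among the 96 genes of the set with a promoter sequence, Usp3 was the only other one with a promoter peak in all 4 addback libraries, and the 300 bases of its promoter held no such core. The promoters of Ube2g2, Ube2d2a and Ube2v2, which also had a peak within 1 kb in all 4, were not searched.
Usp3 (chr9:66593086-66593205, minus strand): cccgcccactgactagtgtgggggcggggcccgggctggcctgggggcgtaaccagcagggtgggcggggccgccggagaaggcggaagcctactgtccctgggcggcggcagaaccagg

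A further 4 promoters held the core and were overlapped by no addback peak, although Usp16, Usp19 and Psmd13 each had a peak elsewhere within 1 kb of a gene end in 1 addback library. They are shown to make plain that the core alone did not set the promoters apart.
Psmd13 (chr7:140882304-140882423, plus strand): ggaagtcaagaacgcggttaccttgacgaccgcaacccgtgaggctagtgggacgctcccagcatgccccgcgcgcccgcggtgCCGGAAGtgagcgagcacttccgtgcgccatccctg
Usp11 (chrX:20703819-20703938, plus strand): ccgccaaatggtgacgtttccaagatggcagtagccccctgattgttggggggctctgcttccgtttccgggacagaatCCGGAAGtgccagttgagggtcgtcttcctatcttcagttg
Usp16 (chr16:87454895-87455014, plus strand): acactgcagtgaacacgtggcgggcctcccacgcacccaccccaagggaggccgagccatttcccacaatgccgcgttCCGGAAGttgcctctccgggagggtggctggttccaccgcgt
Usp19 (chr9:108490586-108490705, plus strand): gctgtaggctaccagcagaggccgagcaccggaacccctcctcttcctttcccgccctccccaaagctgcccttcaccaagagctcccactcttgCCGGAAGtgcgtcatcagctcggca

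A gene was counted as having a peak when a peak overlapped the 1 kb on either side of either end of the gene by at least 1 bp. In SETα addback, 57 of the 119 genes had a peak in replicate 1 (47.9%, Wilson 95% interval 39.1% to 56.8%), where 34.3% of all protein-coding genes had one. In SETα addback replicate 2 it was 63 genes (52.9%, 44.0% to 61.7%) against 31.8% of all genes. Each SETα list thus reached close to 50% of the set. In SETβ addback, 18 genes had a peak in replicate 1 (15.1%, 9.79% to 22.6%), against 8.41% of all genes. Replicate 2 had 36 genes (30.3%, 22.7% to 39.0%), against 18.4% of all genes. These intervals cover counting error only.

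The mean share was 50.4% ± 3.57 (SD, n = 2) in SETα addback and 22.7% ± 10.7 (SD, n = 2) in SETβ addback. The difference of 27.7 percentage points exceeded the pooled spread between replicates of 7.97. It moved with the length of the lists: the SETα lists contained 22176 and 15701 peaks, the SETβ lists 2518 and 9768. When each list was limited to its strongest 1343 peaks, the number in the shortest of the 8 lists, both isoforms had a mean share of 13.0%. The counts were then 12 and 19 genes with SETα and 16 and 15 with SETβ, against 4.65%, 5.77%, 5.39% and 4.96% of all genes. At equal list length the isoforms thus did not differ beyond the spread between replicates in their share of these genes, with a difference of 0.0 points and a spread of 2.97.

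In overexpression few genes of the set had a peak. SETα overexpression had 2 and 5 genes (1.68% and 4.20%) against 0.983% and 1.9% of all genes. SETβ overexpression had 0 and 8 (0% and 6.72%) against 0.338% and 1.85%. The upper Wilson bound for the library without any was 3.13%. Mean shares were 2.94% ± 1.78 and 3.36% ± 4.75 (SD, n = 2 each), 33.4 points below the addback mean with a pooled spread of 6.18. At equal list length the difference was 11.6 points with a spread of 2.28, and with only peaks of a −log10 q of at least 5 it was 8.82 points with a spread of 1.26. All genes also had fewer peaks in overexpression, by 22.0 points with all peaks, 4.64 at equal list length and 3.41 with the stricter peaks. The ratio of the addback to the overexpression mean share was smaller in the set, at 11.6 against 18.3 with all peaks. It was 8.86 against 9.44 at equal list length and 43.0 against 188.5 with the stricter peaks. With all peaks, the 4 addback libraries all lay above the 4 overexpression libraries.

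**Figure D1:**
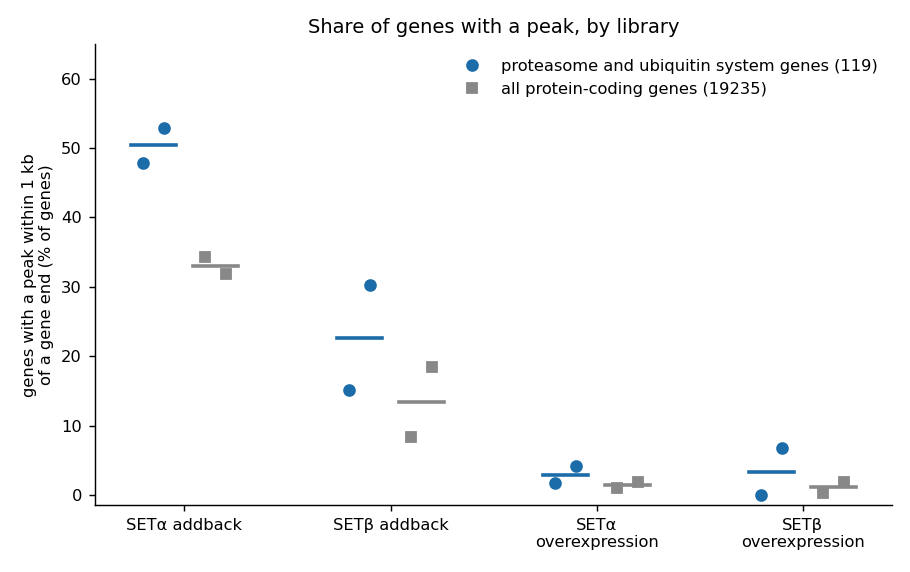
Share of genes with a peak within 1 kb of a gene end (%, vertical axis) in each library, for the 119 proteasome and ubiquitin system genes (circles) and all 19235 protein-coding genes (squares); horizontal bars are means of 2 libraries. The set lies above all genes in every addback library, at 47.9% and 52.9% with SETα and 15.1% and 30.3% with SETβ, and at 6.72% or less in overexpression.

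Presence in every library of a background is the replicate check that a peak list allows. All 4 addback libraries had a peak at 14 of the 119 genes (11.8%), against 5.15% of all genes. SETβ replicate 1 set this count: without it, the other 3 shared 26 genes. No addback library had one at 35 genes (29.4%), against 52.5% of all genes. Both SETα libraries shared 40 genes (33.6%, against 22% of all genes) and both SETβ libraries 14 (11.8%, against 5.85%). All 14 genes of SETβ were among the 40 of SETα, which is 100% of the one list and 35.0% of the other, against 88.0% and 23.4% over all genes. A further 11 genes (9.24%) had a peak in both SETα libraries and in neither SETβ library, against 10.1% of all genes, and 0 showed the opposite pattern, against 0.187%. A peak in a SETβ library and in neither SETα library was at 4 genes (3.36%, against 3.35%). The shares of 9.24% and 3.36% were thus near those of all genes. Only peaks of a −log10 q of at least 5 left 8 genes in all 4 libraries (6.72%, against 2.17% of all genes), and the equal list length left 10 (8.40%, against 2.61%).

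The irreproducible discovery rate (IDR) asks how well replicates rank the same peak, and the authors deposited 1 list per group of peaks that passed it. In SETα addback 10 genes of the set had such a peak (8.40%, Wilson 95% interval 4.63% to 14.8%), against 2.78% of all genes. In SETβ addback it was 9 (7.56%, 4.03% to 13.8%), against 2.62%. Both lists shared 7 genes (5.88%, against 2.18%): Ube2j2, Psmg1, Psmg3, Psmc1, Psmc2, Usp8 and Ube2g2. In overexpression the lists held 1 gene with SETα, Usp18, and 0 with SETβ, against 0.0676% and 0.026% of all genes.

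For comparison, the 89 cytoplasmic ribosomal protein genes had mean shares of 70.8% ± 1.59 in SETα and 33.1% ± 11.9 in SETβ addback (SD, n = 2 each). The 65 mitochondrial ribosomal protein genes had 58.5% ± 4.35 and 36.9% ± 10.9. All 4 values were above the 50.4% and 22.7% of the proteasome and ubiquitin set, so a share above that of all genes was not particular to it.

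By part of the proteasome the counts were small. Among the 16 genes of the 20S core, 8 and 4 had a peak in the SETα and 0 and 4 in the SETβ addback libraries, 0 had one in all 4, and 0 were in an IDR list. With 5.15% of all genes in all 4 libraries, a count of 0 among 16 is near the share of all genes. The 15 genes of the 19S particle had 7, 10, 4 and 5 in the same order, and 3 in all 4. The shares of all genes in these libraries were 34.3%, 31.8%, 8.41% and 18.4%. All 4 assembly chaperone genes had a peak in SETα addback replicate 2 and 2 of them in each of the other 3 addback libraries. With families of 2 to 16 genes these counts carry wide intervals: 5 of 8 Psma genes in SETα replicate 1 allowed 30.6% to 86.3%.

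**Figure D2:**
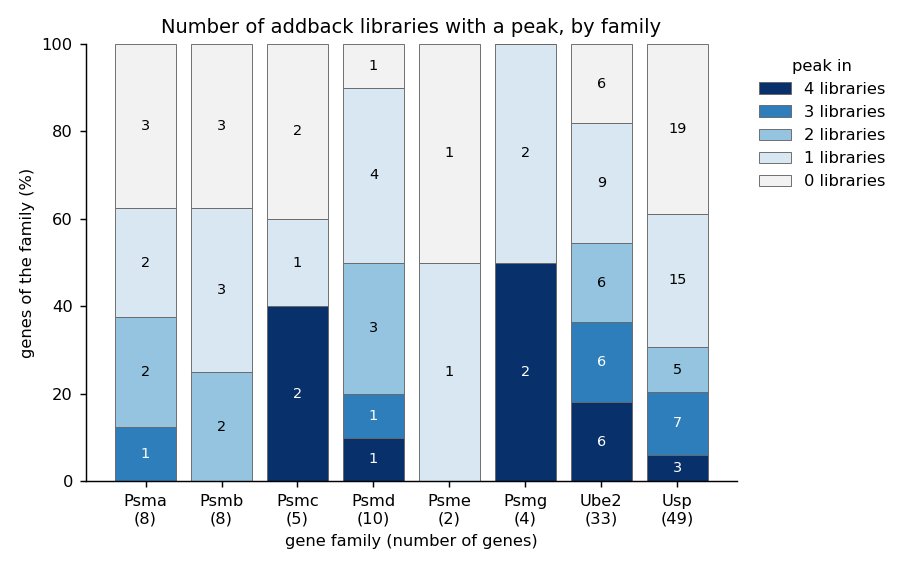
Share of the genes of each family (%, vertical axis) by the number of addback libraries with a peak at the gene, with the number of genes printed in each segment. A peak in all 4 libraries was found at 0 of 8 Psma and 0 of 8 Psmb genes, 2 of 5 Psmc, 1 of 10 Psmd, 2 of 4 Psmg, 6 of 33 Ube2 and 3 of 49 Usp genes.

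Within the 20S core, Psma7, a subunit of the outer ring, had peaks in 3 addback libraries, more than any other core gene. They ranked 2300 and 769 in the SETα lists and 5483 in SETβ replicate 2, where rank 1 is the strongest peak of a list by −log10 p. SETβ replicate 1 had none. The summits also lay 13 to 255 bp from an end of Ss18l1, which shares the region, so the peaks cannot be assigned to one of the genes. Of the catalytic subunits, Psmb5 had a peak in 1 and Psmb7 in 2 addback libraries, at ranks between 4158 and 8822. Of the 4 immunoproteasome genes analysed, which form the interferon-induced variant of the core and its cap, Psmb8, Psmb9 and Psme2 had a peak in 1 SETα library each and Psme1 in none.

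In the 19S particle, Psmc1 and Psmc2, subunits of the ATPase ring that unfolds substrates, and Psmd2, a scaffold that docks ubiquitin receptors, had peaks in all 4 addback libraries. The Psmc1 peak ranked 312 and 397 with SETα and 298 and 394 with SETβ, and its summits lay 12, 99, 35 and 62 bp from the start site. Its fold enrichment over local background was 7.97, 8.13, 7.07 and 5.18, in the same order. These ranks were close to each other although the lists held from 2518 to 22176 peaks.

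Psmc2 had a peak at each of its start sites, 1472 bp apart. At the first start, where the summits also lay 5 to 72 bp from an end of Dnajc2, the peak ranked 433 and 339 with SETα and 305 and 386 with SETβ. At the second start it ranked 910, 317, 295 and 308. Both peaks were in both addback IDR lists, at ranks 312 and 452 of 530 with SETα and 350 and 287 of 485 with SETβ. Both starts were thus covered in every addback library, and a core lay near each, as the sequences above show.

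Psmd2 ranked 1198 and 355 with SETα and 304 and 323 with SETβ, and was in the SETβ IDR list only. Its summits lay 4 to 91 bp from the start site. Psmc3, another ATPase subunit, and Psmc4 had no addback peak. Psmd6, a subunit of the 19S lid, was the other 19S gene with more than 2, at ranks 3137, 1156 and 1370 in both SETα libraries and SETβ replicate 1.

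The chaperones Psmg1 and Psmg3, which help to assemble the outer ring of the core, had some of the strongest peaks of the set. Psmg1 ranked 60 and 127 with SETα and 78 and 51 with SETβ, with fold enrichments of 14.9, 14.0, 13.3 and 12.7. Psmg3 ranked 229 and 100 with SETα and 134 and 104 with SETβ, with 9.23, 15.3, 10.8 and 10.1. All 8 ranks were within the strongest 5.32% of their lists. Psmg2 and Psmg4, the partners of Psmg1 and Psmg3, had a peak in SETα replicate 2 only, at ranks 7164 and 6605. The Psmg1 summits lay 78 to 107 bp upstream of the start site and those of Psmg3 24 to 70 bp.

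Among the E2 enzymes, Ube2j2, a membrane-anchored enzyme of degradation at the endoplasmic reticulum, had the strongest peak of the whole set in each addback library. It ranked 48 and 39 with SETα and 50 and 31 with SETβ, with fold enrichments of 15.7, 18.9, 12.2 and 12.1. Its summits lay 62, 66, 66 and 91 bp upstream of the start site, a spread of 13.3 bp (SD over 4 libraries). The next end of another gene was 18561 bp or more away, so the peak stood at Ube2j2 alone.

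Ube2g2, a further E2 of degradation at the endoplasmic reticulum, ranked 901 and 312 with SETα and 382 and 409 with SETβ, and was in both addback IDR lists. Ube2n, which builds the lysine 63-linked chains used in signalling, ranked 1162, 736, 806 and 794 and was in the SETα IDR list at rank 504. Its partner Ube2v2, an E2 variant without a catalytic cysteine, had weaker peaks in all 4, at 8362 and 1182 with SETα and 1022 and 3239 with SETβ. The other partner Ube2v1 had peaks only in the SETα addback libraries, at 5661 and 2836, and in SETβ overexpression replicate 2.

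The broadly acting E2 genes Ube2d2a and Ube2d3 also had a peak in all 4. Ube2d2a ranked 2229, 1217, 511 and 1253, in the order used above. Ube2d3 ranked 838, 775, 726 and 3573 and was in the SETα IDR list. Its summits lay 17, 173, 156 and 75 bp from an end of the long noncoding RNA gene 4930539J05Rik. They lay 202, 12, 305 and 110 bp from the nearest annotated start of Ube2d3, which was the nearer only in SETα replicate 2. Among E2 genes for other ubiquitin-like proteins, Ube2f (for NEDD8) and Ube2l6 (for ISG15) had a peak in 3 addback libraries and Ube2m (for NEDD8) in 2.

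Ube2q2 shows how the 1 kb limit acts. It was in the SETα IDR list only, at rank 173, but that peak stood at the start of the neighbouring gene Fbxo22, a ligase subunit, with the summit 48 bp from it. The same Fbxo22 peak was present in both SETβ libraries, at ranks 171 of 2518 and 208 of 9768, and in the SETβ IDR list at rank 199 of 485. Its edge lay 861 and 999 bp from Ube2q2 in the SETα libraries and 1068 and 1064 bp in the SETβ libraries. The Fbxo22 peak was thus counted for Ube2q2 in the SETα and not in the SETβ lists, although both isoforms had it. Ube2q2 also had a peak at its own start in both SETα libraries and in SETβ replicate 2. When each gene was taken with its nearest peak in a library, the genes closest to the limit were Usp9x at 992 bp and Ube2l6 at 940 bp inside it, and Ube2q2 at 1068 bp (SETβ replicate 1) and Usp13 at 1106 bp outside it.

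Among the deubiquitinases, Usp30, Usp8 and Usp3 had a peak in all 4 addback libraries. Usp30, which acts on the outer membrane of mitochondria, ranked 118 and 95 with SETα and 82 and 150 with SETβ, with summits 10 to 44 bp upstream of the start site. It was in the SETβ IDR list at rank 138 and not in that of SETα. Of 243 peaks ranked within 300 in both SETα libraries, 17 were likewise missing from the SETα IDR list, so absence from it did not always mean a weak peak. Usp8, which acts at endosomes, ranked 377 and 225 with SETα and 326 and 461 with SETβ, and its summits lay 157 to 203 bp upstream of the annotated start.

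Usp3 removes ubiquitin from histones H2A and H2B. Its peaks were weaker, at ranks 3880 and 3209 with SETα and 653 and 2519 with SETβ, and the strongest peak of SETα replicate 2 lay at the far end, 76 bp from Fbxl22. Of the other histone deubiquitinases, Usp21 had a peak in 3 addback libraries, Usp7 and Usp16 in 1 each and Usp44 in none. In SETα replicate 2 and SETβ replicate 2 the Usp21 summit lay at the far end, 285 and 499 bp from an end of Ppox. Of a list of 10 genes chosen for narrow expression or a place on the Y chromosome (Psma8, Psmb11, Usp9y, Usp26, Usp29 and 5 Usp17l genes, which are close copies of each other), 9 had no peak in any addback library (90.0%, against 52.5% of all genes). The exception was Usp29, at ranks 18541 of 22176 and 11636 of 15701 in the SETα lists, with summits 510 and 237 bp from an end of Peg3.

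**Figure D3:**
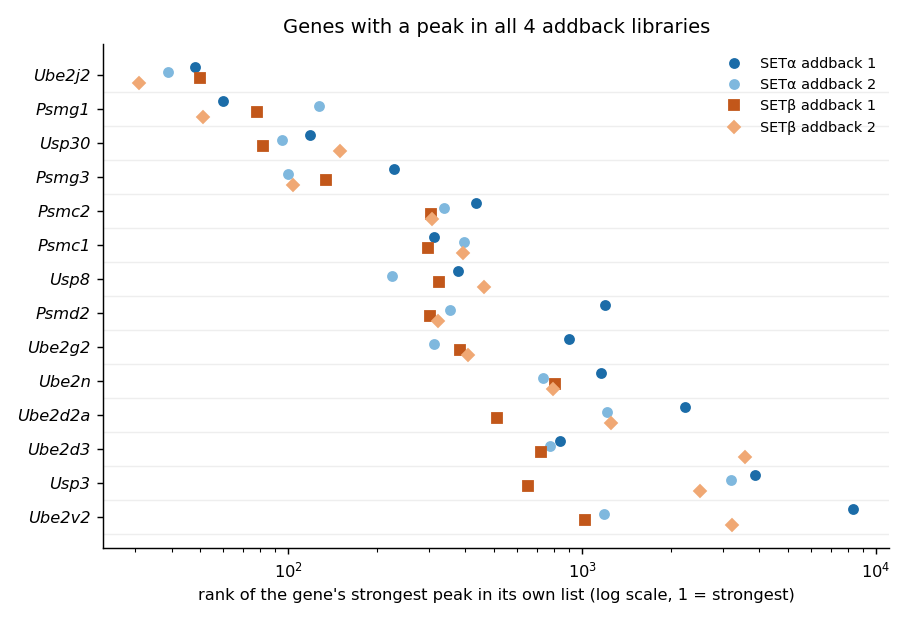
Rank of the strongest peak at each of the 14 genes with a peak in all 4 addback libraries, within its own list (horizontal axis, log scale, 1 = strongest), with 1 symbol per library. Ube2j2 stands between rank 31 and 50 in all 4 lists and Psmg1 between 51 and 127, whereas Usp3 and Ube2v2 reach 3880 and 8362.

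In overexpression, 12 genes of the set had a peak in any library (10.1%, against 3.68% of all genes), 10 of them in 1 library. Usp5, which takes apart free ubiquitin chains, had one in 3, at ranks 112 of 4807 and 57 of 7675 with SETα and 920 of 2869 in SETβ replicate 2. Usp18, which removes the ubiquitin-like ISG15, had one in both SETα libraries, at ranks 352 and 279. The summits of these peaks lay 999 and 1012 bp from the gene end, at the limit of the window. SETα replicate 2 had a further pair of Usp18 peaks, at ranks 855 and 875, with summits 183 and 586 bp from the other gene end. Both genes lie on chromosome 6, which held 70.4% and 63.9% of all SETα overexpression peaks, against 7.67% and 9.20% with SETβ. Without chromosome 6 the mean share of SETα overexpression was 1.30%. Usp5 also had peaks in both SETα and 1 SETβ addback library, and in each library the summit of its strongest peak lay 239 to 806 bp from an end of Cdca3. Weaker peaks at the opposite end of Usp5 in the SETα overexpression libraries had Tpi1 as the nearest other gene.

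Peaks at the set stood mostly at gene starts, as did those at all genes. Among genes with a known strand and a peak, the strongest was at the start rather than the far end for 45 of 48 and 45 of 55 in SETα addback and for 14 of 14 and 29 of 31 in SETβ addback. Over all genes the shares were 89.0%, 90.8%, 94.2% and 90.7%. Summits within 250 bp of a start were found for 26, 29, 13 and 15 of these genes of the set, against 43.0%, 46.1%, 60.7% and 46.7% over all genes. The shortest list, SETβ replicate 1, had the closest summits, with a median distance of 81.0 bp against 209.5, 244 and 254 bp in the other 3. Over all genes it was also the closest, at 168 bp against 308, 282 and 277 bp. With windows of 250 bp the mean share fell to 37.8% in SETα and was 17.2% in SETβ addback.

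The promoters were then searched for 8 motifs on both strands of the 300 bases from 250 before to 50 after a start. A RefSeq promoter was matched to 96 of the 119 genes, and to 15496 of all genes. A peak overlapped the promoter in all 4 addback libraries at 10 of the 96 (10.4%), against 3.63% of all promoters. The ETS core CCGGAAG was in 20 of the 96 promoters (20.8%) and in 11.7% of all promoters. It was in 9 of the 10 promoters with a peak in all 4 libraries (90.0%), and in 49.8% of the 562 such promoters of all genes. Among member promoters without any addback peak it was in 4 of 41 (9.76%), against 6.28% of the 10501 such promoters of all genes.

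Seen from the promoters, 9 of the 20 with the core had a peak in all 4 addback libraries (45.0%) and 1 of the 76 without it (1.32%). Over all genes it was 15.5% of 1810 promoters with the core and 2.06% of 13686 without. In single libraries, 12 and 15 of the 20 with the core had a peak in SETα addback and 10 and 10 in SETβ addback, against 42.9%, 46.2%, 21.4% and 27.2% of all promoters with it. Without the core it was 20 and 26 of 76, and 3 and 8, against 17.0%, 15.9%, 3.74% and 8.10% of all promoters without it. Promoter peaks of the IDR lists were at 7 genes with SETα and 8 with SETβ (against 2.57% and 2.52% of all promoters), and all of them held the core. Over all genes, 50.4% of the 399 promoters with a SETα and 51.7% of the 391 with a SETβ IDR peak held it. A match of letters is a description of the sequence and does not show that a factor binds there.

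**Figure D4:**
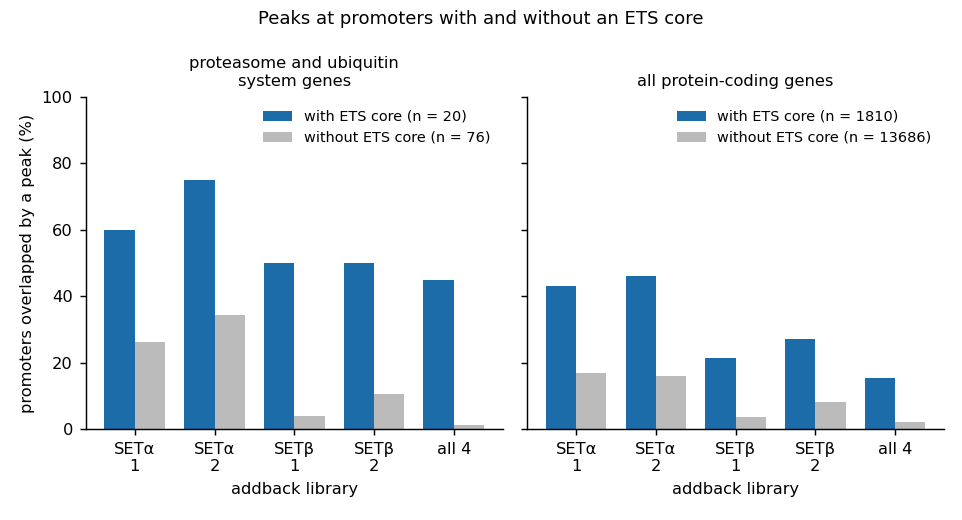
Share of promoters overlapped by a peak (%, vertical axis) in each addback library and in all 4, for promoters with (blue) and without (grey) the ETS core, left for the 96 promoters of the set and right for all 15496 promoters. Bars with the core are higher in every library, with 45.0% against 1.32% in all 4 for the set and 15.5% against 2.06% for all genes.

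CpG-rich promoters held the core more often, with 719 of 3189 at 20 to 29 CpG against 182 of 6780 at 0 to 9. They also had peaks more often, as 1340 of these 3189 and 6439 of these 6780 had no addback peak. The split is therefore also given by CpG number. Among promoters with 20 to 29 CpG, 3 of 6 of the set with the core and 1 of 18 without it had a peak in all 4 libraries. Over all genes the shares were 20.2% and 3.89% in that range. With 30 to 60 CpG it was 4 of 7 against 0 of 23 in the set, and 13.6% against 3.32% over all genes. With 10 to 19 CpG it was 2 of 6 against 0 of 21 in the set, and 14.7% against 3.97% over all genes. Of the 14 promoters of the set with 0 to 9 CpG, 1 held the core and none had an addback peak. Over all genes in that range, 3.30% with the core and 0.227% without it had a peak in all 4 libraries. These strata held 7 or fewer promoters of the set with the core.

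Each of the other 7 motifs was in at most 5 of these 10 promoters. GCGCATG, part of the NRF1 site, was in 2 of the 10 promoters with a peak in all 4 libraries, in 7 of all 96 (7.29%), and in 4.76% of all promoters. GGGCGG, the box of SP and KLF factors, was in 5 of the 10, in 59 of the 96 (61.5%) and in 45.7% of all promoters. CCAAT, the NF-Y box, was in 3 of the 10, in 35 of the 96 (36.5%) and in 39.1% of all promoters. TGACNNNGC, a core of the antioxidant response element through which the factor Nfe2l1 is known to raise proteasome genes, was in 0 of the 10, in 14 of the 96 (14.6%) and in 13.0% of all promoters. TGACGTC (the CRE), TATAAA (the TATA box) and GATGGCG (YY1) were in 0 of the 10. They were in 5 (5.21%), 12 (12.5%) and 11 (11.5%) of the 96, and in 3.94%, 13.4% and 4.18% of all promoters.

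The distance from each library's summit to the centre of the nearest core was then measured at the 10 start sites with the core and a peak in all 4 addback libraries. It was 11 to 27 bp at the second start of Psmc2, 12 to 41 bp at Psmg1, 2 to 38 bp at Usp8 and 19 to 53 bp at Usp30. It was 6 to 68 bp at Psmd2, 13 to 74 bp at Psmc1, 31 to 77 bp at Psmg3 and 2 to 116 bp at the first start of Psmc2. At Ube2j2, the gene with the strongest peak, it was 56 to 85 bp. Ube2n stood apart with 63 to 385 bp. Among all promoters of the set with a core and a summit in the promoter, 9, 12, 9 and 8 in the 4 addback libraries, the median distance was 53.0 and 61.5 bp with SETα and 38 and 34 bp with SETβ. Over all genes, measured the same way, it was 51.0, 51.0, 44.5 and 50.0 bp. To the nearest GGGCGG box it was 45.5, 48.5, 56.5 and 47.0 bp over all genes. The median was thus shorter to that box in both SETα libraries and SETβ replicate 2, and shorter to the core in SETβ replicate 1. Among addback peaks that passed IDR, the all-gene median to the core was 39.0 bp with SETα and 43.0 bp with SETβ. To the box it was 59.5 and 55.0 bp, so these stronger peaks lay closer to the core. Summits fell on both sides of the core, upstream of it at Ube2j2, Psmg1 and Psmg3 and downstream of it at Usp30.

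**Figure D5:**
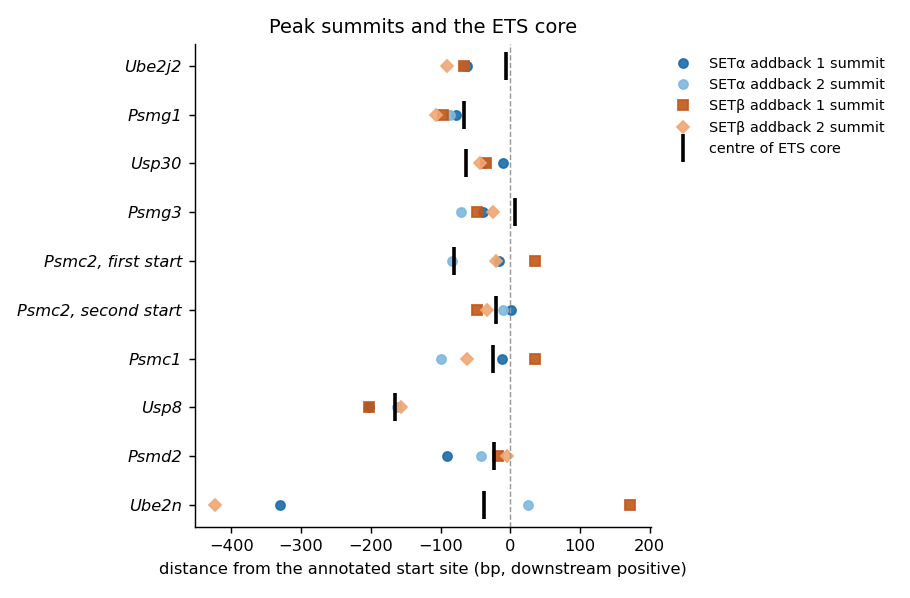
Positions of peak summits in the 4 addback libraries and of the ETS core nearest to their mean (black bar), in bp from the annotated start site (horizontal axis, downstream positive), for the 10 start sites of 9 genes with the core and a promoter peak in all 4 libraries. At the second start of Psmc2 the 4 summits lie 11 to 27 bp from the core, and the summits are most spread at Ube2n (SD 283 bp).

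Other genes of the pathway were taken from a list of 71 symbols, some of them second names of a listed gene. The list, like the set, was drawn up with earlier results of these data known, and 55 of its genes were measured here. In SETα addback, peaks were at 33 and 31 of them (60% and 56.4%, against 34.3% and 31.8% of all genes). In SETβ addback it was 13 and 18 (23.6% and 32.7%, against 8.41% and 18.4%). A peak in all 4 libraries was at 7 (12.7%, against 5.15%). Otud7b, a deubiquitinase of lysine 11-linked chains, ranked 13 and 13 with SETα and 14 and 19 with SETβ, above every gene of the set. It was in both addback IDR lists. Peaks in all 4 were also found at Adrm1, a ubiquitin receptor of the proteasome, Uchl5, the deubiquitinase that binds it, Pomp, a chaperone of core maturation, Mysm1, a histone H2A deubiquitinase, and Rnf7, a subunit of cullin ligases, with best ranks of 722, 820, 814, 1297 and 692. Of the 45 promoters found, 8 held the ETS core and 2 of these had a peak in all 4 libraries, at Adrm1 and Mysm1, against 1 of 37 without it, at Uchl5.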

How the data were processed

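HA ChIP-seq peak lists of 8 libraries, 2 in each of 4 groups, and 1 IDR list per group were used. Bowtie2, MACS2 and deepTools and the builds GRCm38 and mm10 are named in the submitters' processing notes. Versions, the control library and excluded regions are not given in the sources used here. Each library has its own list of peaks from the authors, in which the deposited score is proportional to the −log10 p. Fold enrichment, a linear ratio to local background, and the −log10 of p and q are values the authors deposited. They were used to rank or filter peaks within a list, and the fold enrichments printed are the authors' values for single peaks. In the deposited IDR lists the score is the IDR on another scale, and the IDR itself, deposited as its −log10, was 0.05 at most. Read totals were not used here, so depth is unknown, and only counting intervals are given.

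Genes and promoters came from RefSeq (GRCm38.p6), and peaks were ranked by −log10 p and then fold. Peaks equal in both were ordered by chromosome name and start, so their ranks do not differ in strength. In SETα addback replicate 2, for example, Ube2w at rank 1111 and Ube2k at rank 1296 had equal values. Counting used Python 3.11.15, pandas 2.3.3, numpy 2.4.6 and scipy 1.17.1, with figures from matplotlib 3.10.9. The counting was tested on simulated peaks, where 200 of 200 planted genes were found among 19235. The members and lists were chosen with earlier results of these data known, so counts stand beside those over all genes and no p-value is given.

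Genes were named by these rules: a peak in an addback IDR list, a peak in all 4 addback libraries, a peak in 2 or more overexpression libraries, membership of a role list, the best mean rank in a family, or a place next to the 1 kb limit. Others were named after their values were seen. Alternatives were windows of 250 bp and 2.5 kb, the summit in the window, −log10 q of at least 5, equal list length, no chromosome 6, and each library left out. Some genes of the lists are not reported here.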

Additional observations from a re-analysis of the deposited data

How the results depend on the processing

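Libraries share replicate numbers across groups, but nothing in the labels ties those of 1 number together, and over all genes their deviations correlated at −0.0018 to 0.0281. With libraries paired by number (a replicate block, added after seeing the data), the isoform difference of 27.7 points had an SD of 7.13 over the 2 pairs and the difference between backgrounds of 33.4 points one of 3.86. The mean share of genes with a peak in SETα addback was 50.4%, and was 37.8% with windows of 250 bp, 57.1% with windows of 2.5 kb, and 43.3% when the summit had to lie nearer to the gene than to any other, an alternative chosen after seeing the data. Where a −log10 q of at least 5 was required it was 10.1%, in SETβ addback 7.98% and in SETα overexpression 0.42%. SETα then exceeded SETβ addback by 2.10 points, addback exceeded overexpression by 8.82 points, and 8 genes had a peak in all 4 addback libraries. At equal list length SETα addback had 13.0%, the isoforms differed by 0.0 points, and addback exceeded overexpression by 11.6 points, against 26.5 points with windows of 250 bp. The IDR count of 1 in SETα overexpression was 0 with windows of 250 bp, with the summit in the window, without chromosome 6, and by the nearest gene.

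Leaving out 1 library at a time gave 47.9% to 52.9% for SETα and 15.1% to 30.3% for SETβ addback, and 1.68% to 4.20% and 0% to 6.72% for SETα and SETβ overexpression. The isoform difference in addback ranged from 20.2 to 35.3 points and the difference between backgrounds from 29.6 to 37.2. Genes in all addback libraries ranged from 14 to 26, the highest without SETβ replicate 1. No difference changed sign under any of these alternatives. The length of the lists limits what can be read from shares, since the number of peaks differs between libraries of 1 group.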

Other observations

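Some genes of the set had addback peaks in the lists of 1 isoform. A peak in both SETα addback libraries and in neither SETβ addback library was found at 11 genes (9.24%, against 10.1% of all protein-coding genes): the proteasome genes Psmb4, Psmd1 and Psmd4, the E2 genes Ube2e1, Ube2m, Ube2q1, Ube2v1 and Ube2w, and the deubiquitinase genes Usp24, Usp29 and Usp48. Only Ube2w had a peak within the strongest 1343 of either list, at rank 1111 in SETα replicate 2 and 16332 in replicate 1. In SETβ overexpression replicate 2, Psmd1, Ube2v1 and Usp48 had weak peaks, at ranks 2589, 2457 and 2322 of 2869. Each of these peaks had a −log10 q of 0.0. The 11 genes were chosen after their values were seen, and the SETβ lists are shorter, so the difference between isoforms at them was not tested.

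In the other direction, 4 genes had a peak in a SETβ addback library and in no SETα addback library (3.36%, against 3.35% of all genes). Ube2a, an E2 that acts on histone H2B, ranked 1329 of 2518 in SETβ replicate 1. Psmd13, Ube2s and Usp27x ranked 5944, 7944 and 6787 of 9768 in replicate 2. None of the 4 had a peak in both SETβ libraries.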
